A study of Mus musculus with 6 samples.

Results

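The matrix metalloproteases, the ADAM and ADAMTS proteases, the related ADAMTSL proteins and their TIMP inhibitors were examined in brown adipose tissue, the heat-producing fat of the mouse. Members were all probe sets whose single platform gene symbol was Mmp, Timp, Adam, Adamts or Adamtsl followed by a digit, whatever their values. This gave 85 probe sets of 56 genes, among 22626 probe sets on the array other than Affymetrix controls. The YY1bKO group comprised 3 arrays from YY1flox/flox mice that also carried Ucp1Cre, in which the Ucp1 promoter drives Cre recombinase in brown adipocytes. The control group held 3 arrays from YY1flox/flox mice without it. All mice were 3.5 months old, on a mixed C57BL6 and 129 background, and had been on a high fat diet for 3 months. Other cells of the tissue, in which this promoter is not known to be active, would keep Yy1, the gene of the transcription factor Yin Yang 1. The comparison is between tissue in which deletion of Yy1 was directed to brown adipocytes and tissue without that deletion. The arrays measure RNA of whole tissue, so loss of the factor in the adipocytes themselves was not measured.

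Matrix metalloproteases are zinc-dependent enzymes that cut collagens, elastin and other matrix proteins and are made as inactive precursors. ADAMs are mostly membrane-bound and release the outer parts of cell-surface proteins, ADAMTS proteases are secreted and cut proteoglycans and procollagens, and TIMPs are small secreted proteins that block the active site of these enzymes. In fat, matrix turnover by such proteases accompanies the growth of adipocytes and of blood vessels.

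All values are log2 of the deposited intensity, and a probe set whose mean does not exceed 6.48, the median over the array, is called dim. Yy1 itself, in its brightest probe set, was at 8.38, 8.41 and 8.38 in YY1bKO arrays and at 9.90, 9.62 and 9.95 in control arrays (log2 fold change -1.43, limma adjusted p = 0.000887). Its other probe sets gave -1.71 (adjusted p = 0.000456) and, in dim ones, -0.81 (adjusted p = 0.0103) and -0.06 (adjusted p = 0.766). The mean of 7 brown adipocyte markers was 12.86 to 12.88 in YY1bKO arrays and 12.70 to 12.97 in control arrays. Control replicate 2 stood apart. Pearson's r across probe sets was 0.996 between control replicates 1 and 3 and at most 0.983 between either and replicate 2, against 0.996 between YY1bKO arrays. The mean of 8 skeletal muscle markers was 12.55, 12.76 and 12.32 in YY1bKO arrays, and 11.44, 13.78 and 11.13 in control arrays, highest in control replicate 2 and lowest in the other controls. Results that rest on that array are therefore also given without it.

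Few members differed between the groups. Unless another fit is named, calls are those of limma with all 6 arrays weighted equally and group as the sole term. Of the 85 probe sets, 2 were lower and 1 was higher in YY1bKO at a limma adjusted p under 0.05, together 3.53%, while 16% of all probe sets passed (8.83% higher and 7.16% lower). The lower ones belonged to Adam9 and Mmp13 and the higher one to Adam2. The median log2 fold change, YY1bKO over control, was 0.05 over the members and 0.03 over all probe sets. Many members were faint. Of the 60 dim ones 2 were called, against 7.50% of all dim probe sets, and of the 25 brighter ones 1 was called, against 24.5% of all brighter probe sets. The 3 values of YY1bKO lay wholly above those of control in 10 members and wholly below them in 7, together 20% of the members, against 36.2% of all probe sets (21.1% above and 15.1% below). In 71 of the 85 probe sets the 95% confidence interval of the difference lay within a 2-fold change in either direction, and this held for 14 of the 25 brighter ones. The brighter members had a median SD of 0.17 in YY1bKO arrays and 0.59 in control arrays, where all brighter probe sets had 0.09 in YY1bKO and 0.15 in control arrays.

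**Figure D1:**
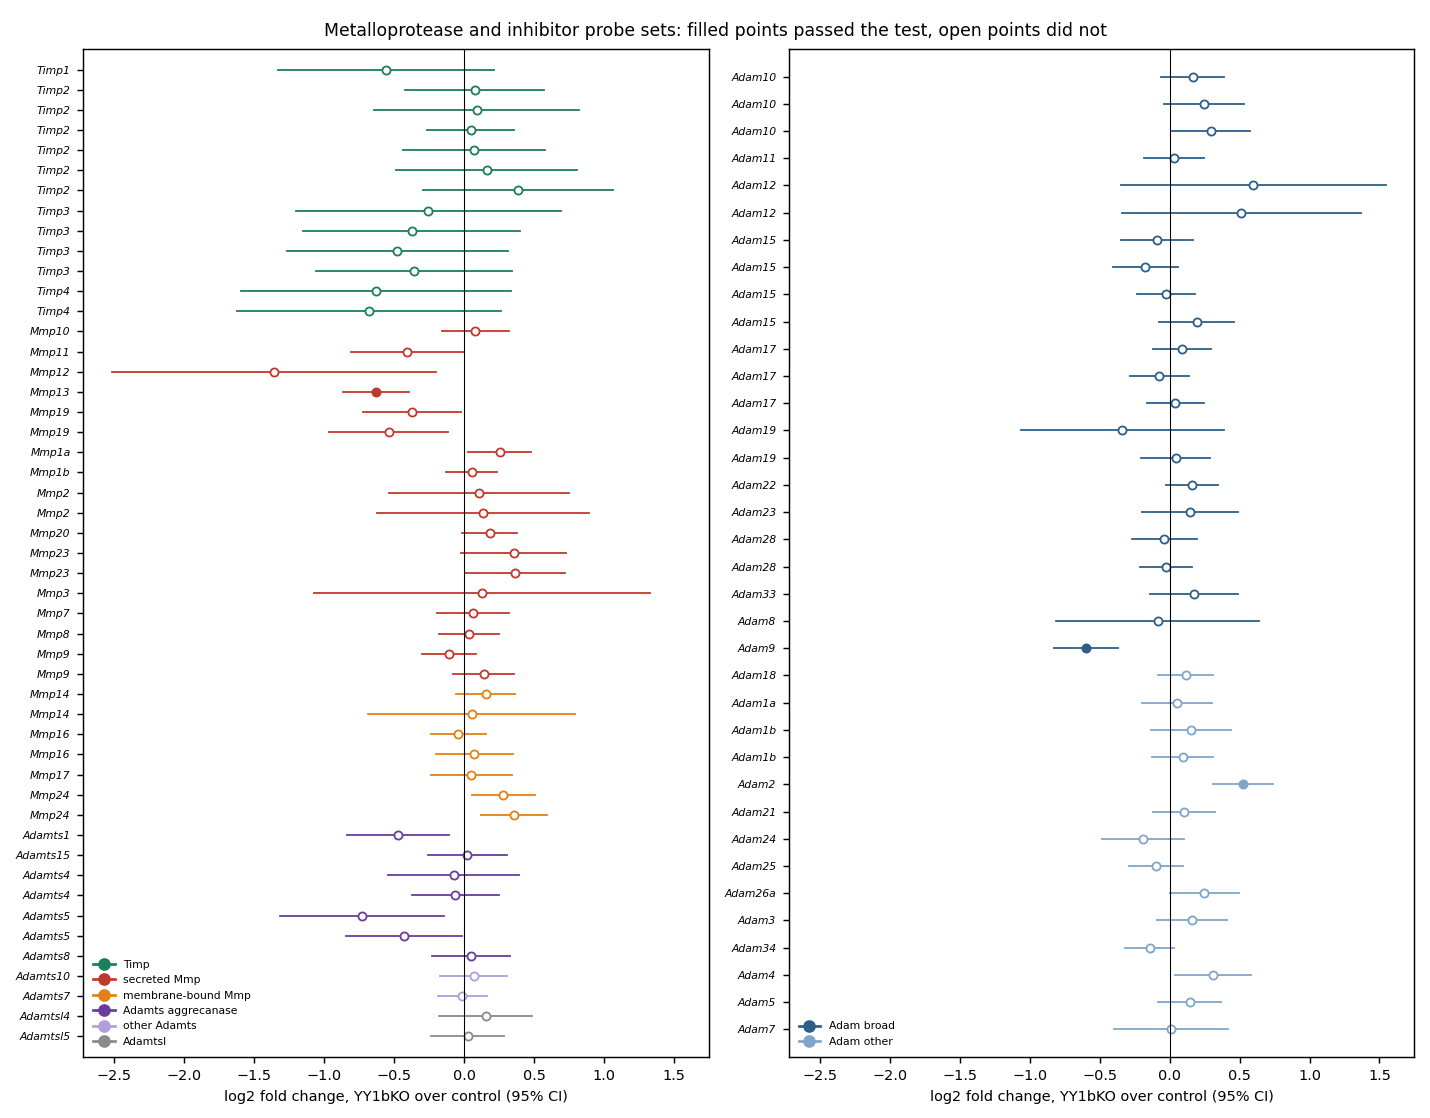
Log2 fold change, YY1bKO over control, of all 85 probe sets with its 95% confidence interval, grouped by role, with 1 row for each probe set. The called probe sets are those of Mmp13, Adam9 and Adam2, and Mmp3, Mmp12, Timp4, Timp3 and Adam12 have some of the widest intervals.

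No TIMP inhibitor was called in the fit with all arrays weighted equally. By limma, 0 of 13 probe sets of 4 genes passed the adjusted test and 0 had an unadjusted p under 0.05, where 30.2% of all probe sets did. Timp4, an inhibitor abundant in fat and heart, was at 8.427, 9.186 and 9.009 in YY1bKO arrays and at 9.965, 8.555 and 9.998 in control arrays in its brighter probe set. Control replicate 2 lay among the YY1bKO arrays, and the other controls lay above all of them. The log2 fold change was -0.63 ± 0.41 (SE; limma adjusted p = 0.353), with a 95% interval of -1.60 to 0.33, and the second probe set gave -0.68. With array weights, which lower the influence of arrays that vary more, that second probe set was called lower (-0.99, adjusted p = 0.0369). Timp3, the inhibitor that stays bound to the matrix and also blocks Adam17, was at 10.33, 10.81 and 10.97 in YY1bKO arrays, against 11.47, 10.41 and 11.30 in control arrays, in the brightest of its probe sets. There the log2 fold change was -0.36 ± 0.30 (SE; adjusted p = 0.474), and its other probe sets gave -0.48 to -0.26. Control replicate 2 was the lowest control in all 6 probe sets of both genes.

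Without control replicate 2, all 4 Timp3 and both Timp4 probe sets were called lower. The log2 fold change was then -1.11 ± 0.21 (SE; limma adjusted p = 0.0117) for the brighter Timp4 probe set and -0.68 ± 0.19 (SE; adjusted p = 0.0401) for the brightest of Timp3. In this fit 13 of the 85 members were called, 11 lower and 2 higher, or 15.3%, against 22.5% of all probe sets (10.9% lower and 11.5% higher), and the 3 calls made with all arrays weighted equally were among them. The remaining calls were both Mmp19 probe sets and Adamts1, all lower, and Adamtsl4, a fibrillin-binding matrix protein, higher. With the skeletal muscle mean as a covariate and all 6 arrays, a fit chosen after seeing the data, neither TIMP gene was called. The log2 fold change was then -0.40 (limma adjusted p = 0.215) for the brighter Timp4 probe set and -0.20 (adjusted p = 0.451) for the brightest of Timp3. That fit called 13 members, 6 higher and 7 lower, against 26.8% of all probe sets. The skeletal muscle list was higher in all 3 YY1bKO arrays than in control replicates 1 and 3.

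**Figure D2:**
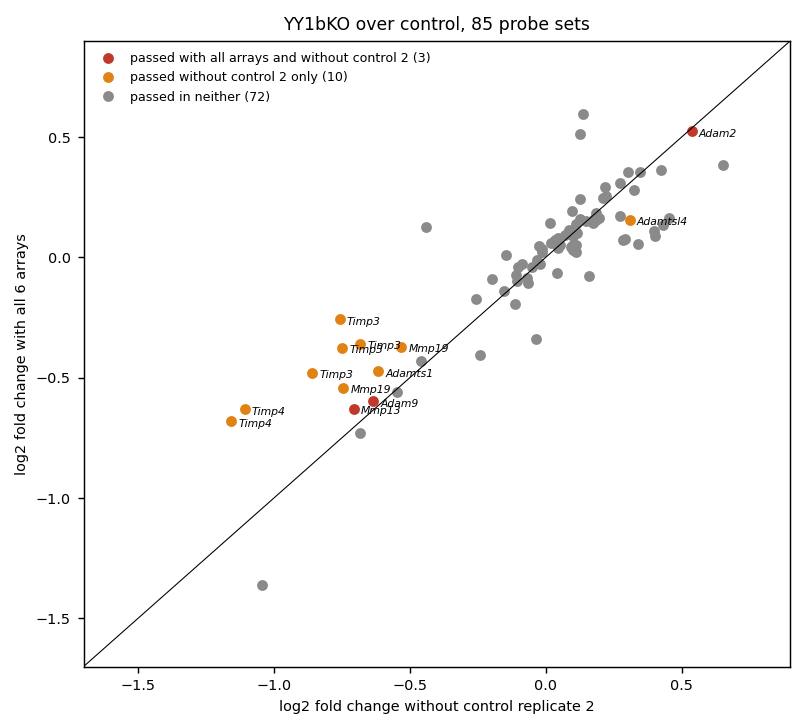
Log2 fold change, YY1bKO over control, of the 85 probe sets with all 6 arrays and without control replicate 2, the diagonal marking equal values. The 6 Timp3 and Timp4 probe sets had more negative values without that array and are among the 13 that passed there.

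Timp4, Timp3 and Timp1 lie inside the synapsin genes Syn2, Syn3 and Syn1 in the GRCm38.p6 gene table. The brighter Syn2 probe set was at 6.15, 6.89 and 6.85 in YY1bKO arrays and at 7.50, 6.25 and 7.59 in control arrays (log2 fold change -0.48, limma adjusted p = 0.449). Like Timp4, it was lowest in control replicate 2 among the controls. The Syn1 and Syn3 probe sets were dim, with log2 fold changes of 0.01 and 0.18 that did not pass. Whether the Timp4 and Syn2 probes share a transcript was not tested.

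Timp2, the broad inhibitor that also helps Mmp14 activate Mmp2, was not called. Its brightest probe set was at 9.63, 9.71 and 9.51 in YY1bKO arrays, against 9.47, 10.04 and 8.85 in control arrays (log2 fold change 0.16 ± 0.27, SE, limma adjusted p = 0.747, 95% interval -0.48 to 0.81). The YY1bKO values lay inside the range of the controls, and the 6 Timp2 probe sets had log2 fold changes of 0.05 to 0.38, none called. Timp1, the inducible inhibitor, was dim at 5.37, 5.76 and 5.25 in YY1bKO arrays and 6.69, 6.04 and 5.34 in control arrays, where control replicate 3 lay among the YY1bKO values. Its log2 fold change was -0.56 ± 0.33 (SE; adjusted p = 0.306), against -0.23 when control replicate 1 was left out and -0.90 when control replicate 3 was (adjusted p = 0.0626).

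Mmp2, a gelatinase made by fibroblasts, and Mmp14, the membrane-bound protease that activates it, were not called either. Mmp2 was at 7.87, 7.77 and 7.70 in YY1bKO arrays and at 7.83, 8.24 and 6.87 in control arrays in its brighter probe set (log2 fold change 0.13 ± 0.32, SE, limma adjusted p = 0.827). Mmp14 was at 7.68, 7.05 and 7.28 in YY1bKO arrays, against 7.37, 7.85 and 6.62 in control arrays (0.05 ± 0.31, SE, adjusted p = 0.932). These genes and Timp2 shared an order among the controls. Of their 10 probe sets, 9 were highest in control replicate 2 and 9 lowest in control replicate 3. The mean of 8 fibroblast markers was 10.10, 9.98 and 9.79 in YY1bKO arrays and 10.09, 10.32 and 9.43 in control arrays. Its highest and lowest controls were the same as for those genes. Of the markers, Pdgfra, Dcn and Lum were highest in control replicate 2, but the collagen genes Col1a1, Col1a2 and Col3a1 in control replicate 1. By limma 0 of these 8 markers were called, the list means differed by 0.01 (two-sided exact permutation p = 0.9), and their part in the protease values was not tested. In bulk tissue, fewer cells of a type and less RNA per cell cannot be told apart. The second probe set of Mmp14 was dim, with a log2 fold change of 0.15, and Mmp9, the other gelatinase, was dim in both probe sets, with -0.10 and 0.14, none of them called.

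**Figure D3:**
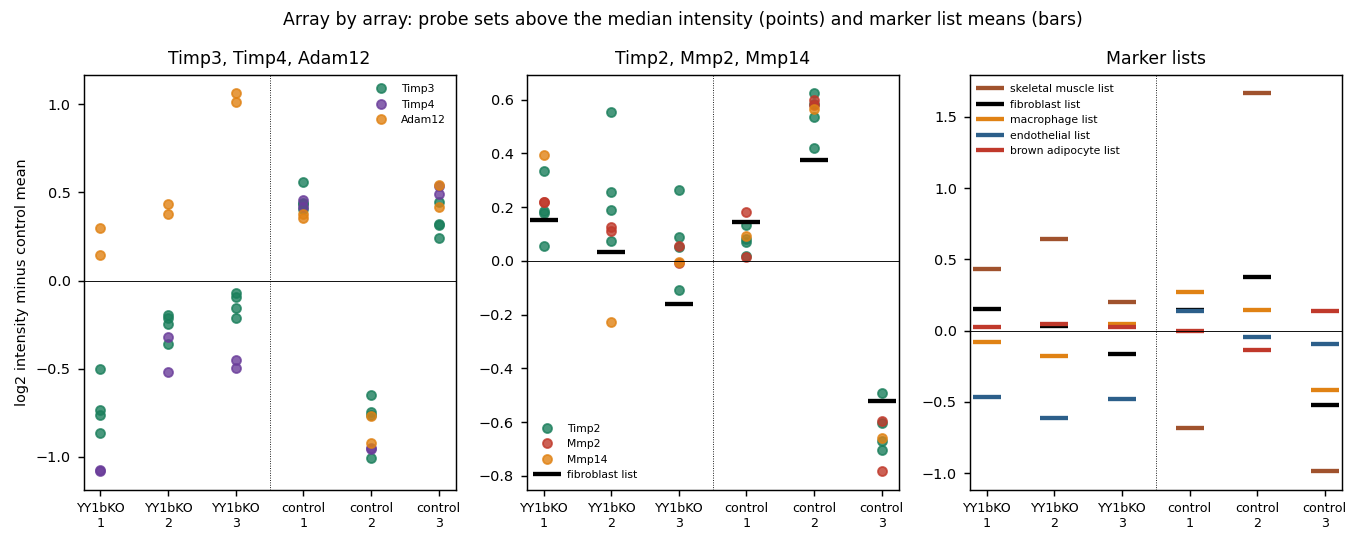
Log2 intensity of each array minus the mean of the 3 control arrays, for bright probe sets and for marker list means, YY1bKO arrays left of control arrays. Timp3, Timp4 and Adam12 were low in control replicate 2, the skeletal muscle list was high there, and Timp2, Mmp2, Mmp14 and the fibroblast list were high there and low in control replicate 3.

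Among the 18 probe sets grouped as secreted matrix metalloproteases, 1 was lower and 0 were higher in YY1bKO by limma's adjusted test. At an unadjusted p under 0.05, 5 were lower and 2 higher (13.3% and 16.9% of all probe sets). Mmp23 was counted in this group rather than with the membrane-bound ones. A Mmp23 probe set was among those higher (0.36, limma unadjusted p = 0.0457). The called one was Mmp13, a collagenase, at 3.42, 3.31 and 3.46 in YY1bKO arrays, against 4.04, 3.88 and 4.16 in control arrays. The groups did not overlap, and the log2 fold change was -0.63 ± 0.10 (SE; limma adjusted p = 0.00922), or 1.55-fold lower. These intensities are far below the median of the arrays, and with 16 added to each intensity before taking log2 the change was -0.28 (adjusted p = 0.0202).

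Mmp12, the elastase of macrophages, had the largest log2 fold change in size of the 85 probe sets with all arrays, but did not pass, and without control replicate 2 both Timp4 probe sets exceeded it. It was at 5.78, 5.70 and 6.02 in YY1bKO arrays and at 7.82, 7.83 and 5.93 in control arrays, so that control replicate 3 lay among the YY1bKO values and the other controls well above them. Its log2 fold change was -1.36 ± 0.49 (SE; limma adjusted p = 0.113, 95% interval -2.52 to -0.20), and the value depended on which control array was left out. It was -1.05 without control replicate 1 (adjusted p = 0.283) and -1.04 without control replicate 2 (adjusted p = 0.170). Mmp12 was called lower without control replicate 3 (-1.99, adjusted p = 0.00302) and with array weights (-1.47, adjusted p = 0.0399). The fit with the muscle covariate also called it lower (-1.54, adjusted p = 0.0360). The mean of 8 macrophage markers was 8.21, 8.11 and 8.33 in YY1bKO arrays and 8.56, 8.43 and 7.87 in control arrays, also lowest in that control replicate. Of these markers the scavenger receptor gene Cd163 was lower (log2 fold change -0.79) and 0 were higher, and their part in the Mmp12 values was not tested.

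Mmp19, a protease found in vessel walls and macrophages, was dim at 5.25, 5.20 and 5.31 in YY1bKO arrays, against 6.11, 5.39 and 5.89 in control arrays, with no overlap (log2 fold change -0.54 ± 0.18, SE, limma adjusted p = 0.0891). Its second probe set gave -0.37 (adjusted p = 0.143). Both were called lower without control replicate 2, with array weights and with the muscle covariate. Mmp3, stromelysin, spread from 5.97 to 6.09 in YY1bKO arrays and from 4.76 to 7.04 in control arrays, so that the 95% interval of its log2 fold change ran from -1.07 to 1.33, with a value of 0.70 when control replicate 1 was left out and -0.44 when control replicate 2 was. None of the 7 probe sets of membrane-bound metalloproteases was called with all arrays weighted equally and group as the sole term. The uncalled member nearest to the threshold was Mmp24, dim in both probe sets. It was at 6.49, 6.47 and 6.45 in YY1bKO arrays and 6.03, 6.02 and 6.31 in control arrays. The log2 fold change was 0.35 ± 0.10 (SE; limma adjusted p = 0.0561). Without control replicate 3 Mmp24 was called higher (0.45, adjusted p = 0.0255). In its second probe set, too, all YY1bKO values lay above all control values (0.28, adjusted p = 0.0987), and with array weights both were called higher. With the muscle covariate the first Mmp24 probe set was called higher (0.38, adjusted p = 0.0233) and the second was not. BC029722, a gene that overlaps Mmp24 in the gene table, was higher by 0.49 (adjusted p = 0.00997).

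**Figure D4:**
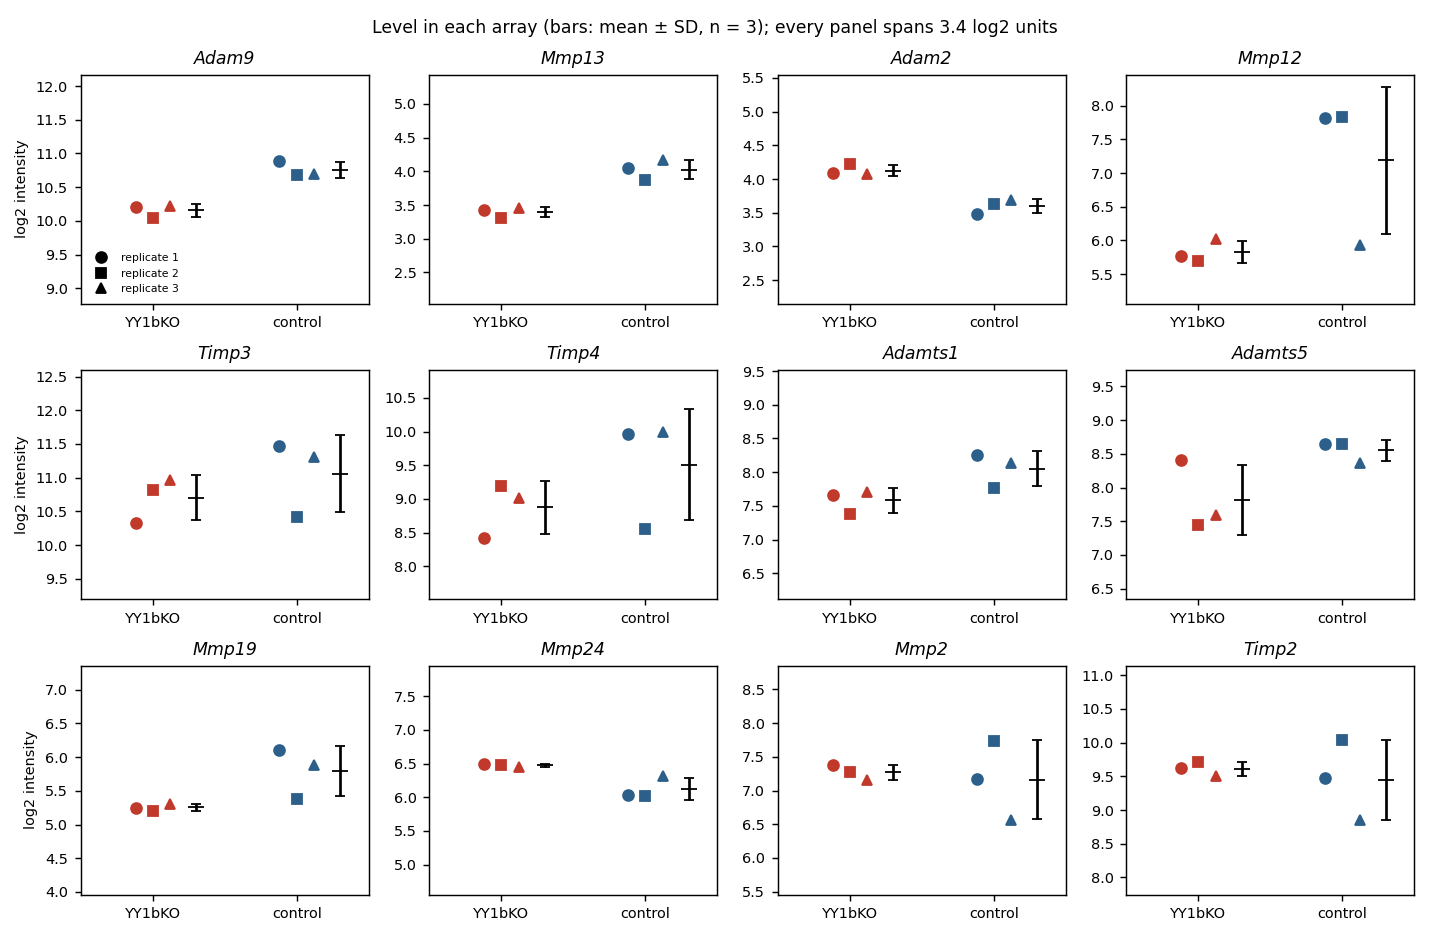
Log2 intensity of selected probe sets in each array, YY1bKO left of control, with the mean ± SD (n = 3 each). The groups are apart in the called Adam9, Mmp13 and Adam2. They are also apart in Adamts1, Mmp19 and Mmp24, not called with all arrays weighted equally and group as the sole term. In Mmp12, Timp3 and Timp4 1 control array lies among the YY1bKO values.

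Mmp13 and Mmp12 stand next to each other at the end of a cluster of 10 Mmp genes on mouse chromosome 9, of which 9 were measured. The other 7 measured genes of the cluster were dim and not called. Promoters of this cluster share the AP-1 motif TGANTCA, the site bound by Fos and Jun proteins. RefSeq promoter sequences of GRCm38.p6, which run from 250 bases before to 50 after a gene's start, covered 32 of the 56 member genes in 37 promoters and were searched on both strands. The motif was found for 8 of the 9 measured cluster genes, not for Mmp8. It was in 11 of the 37 member promoters, or 29.7%, against 7.81% of 32851 promoters. Of those 11 promoters, 3 belonged to genes outside the cluster, so the share over all members mostly reflects the cluster. The Mmp13 promoter is shown whole because that gene was called (chr9:7272264-7272563, plus strand), and the others by the motif with 20 bases on either side, for comparison of the shared site. Each runs 5′ to 3′ on the gene's strand with the motif in capitals.
Mmp13: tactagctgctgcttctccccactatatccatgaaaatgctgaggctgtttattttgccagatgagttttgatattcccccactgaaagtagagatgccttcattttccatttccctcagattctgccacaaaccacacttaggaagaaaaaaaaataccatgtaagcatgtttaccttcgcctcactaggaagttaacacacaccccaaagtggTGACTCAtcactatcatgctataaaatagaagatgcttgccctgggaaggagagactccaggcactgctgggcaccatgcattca
Mmp12, chr9:7347310-7347356, plus strand: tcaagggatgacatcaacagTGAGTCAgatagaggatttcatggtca
Mmp1b, chr9:7388093-7388139, minus strand: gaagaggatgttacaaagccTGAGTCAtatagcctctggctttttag
Mmp3, chr9:7445756-7445802, plus strand: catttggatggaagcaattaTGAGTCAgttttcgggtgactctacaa
Mmp1a, chr9:7464048-7464094, plus strand: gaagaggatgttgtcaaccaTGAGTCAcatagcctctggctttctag
Mmp10, chr9:7502259-7502305, plus strand: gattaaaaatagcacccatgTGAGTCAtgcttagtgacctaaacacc
Mmp20, chr9:7628116-7628162, plus strand: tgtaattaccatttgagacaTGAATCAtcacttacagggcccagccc
Mmp7, chr9:7692007-7692053, plus strand: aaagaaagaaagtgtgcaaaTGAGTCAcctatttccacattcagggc
The motif began 35 bases before the gene's start in Mmp13 and 95 bases before it in Mmp20, the nearest and the farthest of those shown. The core of the YY1 site, AANATGGC, was in 1 of the 37 member promoters, or 2.7%, against 6.05% of all promoters. That promoter belongs to Adam17, and the match is shown with the same flanks because Yy1 is the deleted gene (chr12:21373708-21373755, minus strand).
Adam17: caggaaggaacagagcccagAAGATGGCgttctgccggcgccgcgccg
These are matches of letters, and binding was not tested.

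Among the ADAMs, Adam9 was lower in YY1bKO. Adam9, a widely expressed membrane protease, was at 10.20, 10.05 and 10.22 in YY1bKO arrays, against 10.89, 10.68 and 10.69 in control arrays. All 3 YY1bKO values lay below all controls. The means were 10.16 ± 0.09 in YY1bKO and 10.76 ± 0.12 in control arrays (SD, n = 3 each), a log2 fold change of -0.60 ± 0.10 (SE; limma adjusted p = 0.00946), or 1.51-fold lower. It has 1 probe set and was the only bright member called with all arrays weighted equally and group as the sole term. It passed under each alternative tried, including without any single array.

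The main sheddases were not called. Adam17, which releases Tnf and ligands of the Egf receptor, was at 8.47, 8.55 and 8.59 in YY1bKO arrays and at 8.74, 8.54 and 8.55 in control arrays, with a 95% interval of the log2 fold change of -0.28 to 0.14. Its other probe sets gave 0.04 and 0.09. Adam10, which cuts Notch receptors, was at 9.62, 9.54 and 9.67 in YY1bKO arrays, against 9.53, 9.51 and 9.29 in control arrays (0.16 ± 0.10, SE, limma adjusted p = 0.306). Its YY1bKO values lay above all controls by a small margin, and its other probe sets gave 0.24 and 0.29 without passing, though both passed with the muscle covariate (adjusted p = 0.0262 and 0.0491). Adam12, known from muscle regeneration and fat progenitors, was at 9.18, 9.41 and 10.04 in YY1bKO arrays and 9.39, 8.26 and 9.45 in control arrays in its brighter probe set, with control replicate 2 lowest (0.51 ± 0.36, SE, adjusted p = 0.395). With the muscle covariate it was called higher (0.72, adjusted p = 0.0298), and without control replicate 2 the change was 0.13. All 4 Adam15 probe sets had log2 fold changes of -0.17 to 0.19 and none passed.

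The 14 probe sets of the other ADAMs, most of them known from testis, were all dim. Adam2, a sperm protein, was at 4.09, 4.22 and 4.07 in YY1bKO arrays and at 3.48, 3.63 and 3.69 in control arrays, without overlap (log2 fold change 0.52 ± 0.09, SE, limma adjusted p = 0.0120). With 16 added to each intensity the change was 0.25 (adjusted p = 0.0223), and leaving out YY1bKO replicate 2 ended the call (0.48, adjusted p = 0.0534). Adam4 followed at 0.31 (adjusted p = 0.125), and the rest lay between -0.19 and 0.25 without passing.

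None of the 9 ADAMTS and 2 ADAMTSL probe sets was called in the equally weighted fit, and 3 ADAMTS probe sets were lower at an unadjusted p under 0.05, as were 13.3% of all probe sets. They belonged to Adamts5 and Adamts1, whose products cut the proteoglycans aggrecan and versican. Adamts5 was at 8.41, 7.44 and 7.60 in YY1bKO arrays, against 8.64, 8.64 and 8.37 in control arrays, where YY1bKO replicate 1 lay among the controls (log2 fold change -0.73 ± 0.25, SE, limma adjusted p = 0.0968). Without that array it was called lower (-1.03, adjusted p = 0.0158), and its dim second probe set gave -0.43 with all arrays. Adamts1, which also limits vessel growth, was at 7.66, 7.37 and 7.71 in YY1bKO arrays and at 8.26, 7.77 and 8.14 in control arrays, a narrow separation (-0.47 ± 0.15, SE, adjusted p = 0.0864). It was called lower without control replicate 2 (-0.62, adjusted p = 0.0134), with array weights (-0.59, adjusted p = 0.0158), with the muscle covariate (-0.40, adjusted p = 0.0318) and with the replicate number as a block (adjusted p = 0.0446).

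The mean of 8 endothelial markers was 7.59, 7.44 and 7.57 in YY1bKO arrays, against 8.19, 8.01 and 7.96 in control arrays, a difference of -0.52 (exact permutation p = 0.1, two-sided, the least attainable with 3 against 3, and 0.367 adjusted over 11 marker lists). Of these markers 4 were lower, Cdh5, Kdr, Tek and Cldn5, and 0 were higher by limma. Among 8 smooth muscle and pericyte markers 4 were also lower, Pdgfrb, Rgs5, Cspg4 and Notch3 (-0.95 to -0.53), and 0 higher. The other 4, the contractile genes Acta2, Myh11, Tagln and Cnn1, had values of 0.20 to 0.49 without passing, and the list mean differed by -0.17 (two-sided exact permutation p = 0.4). The part of these cells in the Adamts1 and Mmp19 values was not tested.

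Of the 56 member genes, 19 had more than 1 probe set, and in 14 of these all probe sets had the same sign. The 5 genes with mixed signs, Adam15, Adam17, Adam19, Mmp16 and Mmp9, had no called probe set.

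Most other genes of extracellular proteolysis were not called, and those called in the equally weighted fit were lower. Of 71 listed genes 66 were measured, each by its brightest probe set, and 9 were lower and 0 higher in YY1bKO, with a median log2 fold change of -0.12. Over all 12393 genes taken in this way, 7.78% were lower and 9.72% higher, together 17.5%, with a median of 0.04. Among the proprotein convertases that activate these proteases, Pcsk6 was at 7.77 ± 0.14 in YY1bKO and 8.71 ± 0.07 in control arrays (SD, n = 3 each), a log2 fold change of -0.94 ± 0.10 (SE; limma adjusted p = 0.00252). Furin fell by 0.36 (adjusted p = 0.0375), and Pcsk5 was not called. Among 7 partners of Adam10 and Adam17, Rhbdf1, an inactive rhomboid that carries Adam17 to the cell surface, fell by 0.59 (adjusted p = 0.00488). Tspan14, a tetraspanin partner of Adam10, fell by 0.54 (adjusted p = 0.0190).

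Among 14 further inhibitors, cofactors and receptors, Lrp1, which clears these proteases and TIMPs from outside the cell, fell by 0.56, and Tfpi2, a serine protease inhibitor, fell by 0.85. Thbs1, thrombospondin 1, had a log2 fold change of -1.46 ± 0.44 (SE) without passing (limma adjusted p = 0.0698). It was called lower without control replicate 2 (-1.95, adjusted p = 0.00346), with array weights (adjusted p = 0.00637) and with the muscle covariate (adjusted p = 0.0204). Of 13 measured substrates of ADAMs, App, the amyloid precursor, fell by 0.57 (adjusted p = 0.0122) and 0 were higher. Averaging all App probe sets gave -0.28 (adjusted p = 0.0468). Notch4, a receptor of vessels, was at 0.59 without passing (limma adjusted p = 0.135). It was called higher without control replicate 2 (0.31, adjusted p = 0.0378) and with the muscle covariate (0.73, adjusted p = 0.00250). Of 11 matrix genes, among them substrates of ADAMTS and MMPs, Lox, a lysyl oxidase, fell by 1.73 and Bgn, the proteoglycan biglycan, fell by 0.78, while Vwf, the substrate of an ADAMTS protease in blood, was at -0.62 (adjusted p = 0.0580). By limma, 0 of 6 plasminogen system genes were called, with Plat at -0.63 and Plau at -0.38, and 0 of 11 other proteases, with the neprilysin gene Mme at -0.55 and Fap at -0.58. Mme was called lower without control replicate 2 (-0.65, limma adjusted p = 0.0403). Plat (-0.89, adjusted p = 0.0240), Fap (-0.82, adjusted p = 0.0399) and Vwf (-0.76, adjusted p = 0.0382) were called lower without control replicate 3. No other omission of a single array called these genes. Array weights called Mme (0.0370) and Vwf (0.0202), and the replicate block Mme (0.0389). The muscle covariate called Plat (0.0109), Fap (0.00642) and Vwf (0.0466). Vwf also passed without dim probe sets (0.0448) and with trend and robust options (0.0497). Pcsk6, Rhbdf1 and Lox passed without any single array. The count of lower genes was 3 without YY1bKO replicate 2, 4 without YY1bKO replicate 1 or 3, 6 without control replicate 1 and 13 without control replicate 2 or 3. Calls over the whole array moved too. Among all probe sets, 7.16% were lower with every array kept, and 10.9% once control replicate 2 was dropped. For the other omissions that share was not counted. The changes in these counts therefore cannot be taken as particular to the listed genes.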

How the data were processed

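Per the labels' protocols, 6 ug of Trizol-extracted RNA was made into biotinylated cRNA. The deposited table holds an intensity on a linear scale for 22690 probe sets on each of 6 arrays. RMA, which corrects background, equalises arrays and summarises probes, is named in the submitters' processing notes, with no version given in the sources used here. Intensities, from 4.91 to 21219, were taken to log2 with no pseudocount, and 64 control probe sets were removed. Of the other 22626, 20380 had 1 gene symbol in the platform annotation, 691 several, including 1 that names a member and was left out, and 1555 none. All 56 member symbols matched the GRCm38.p6 gene table.

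The linear models of limma 3.58.1 (R 4.3.3), with lmFit and eBayes and 2.93 prior and 4 residual degrees of freedom, were fitted on all 22626 probe sets with group as the sole term. Tests are two-sided, adjusted by Benjamini-Hochberg over all probe sets and called under 0.05. The fit was tested on simulated data with independent noise and changes larger than any of the members. That test does not cover changes of the size seen here, or an array that stands apart. Marker list means were compared by exact permutation over 20 assignments. The labels do not state that arrays of a group come from separate animals, so the p-values measure the spread between these arrays, which could be technical. The number of arrays limits the precision.

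Members and lists were chosen with earlier results of these data known. Genes were named by rule: all Timp, Mmp2, Mmp9, Mmp14, Adam10, Adam17, Adamts1 and Adamts5 probe sets, called members and the one nearest to the threshold, the brightest members, and up to 3 genes of each network part. Mmp12, Mmp19, Mmp3, the second Mmp24 probe set, Adam4, Adam15, Adamtsl4, the Syn genes, BC029722 and the promoters shown were chosen after their values were seen. Same-numbered arrays did not deviate together (r = -0.23, 0.09 and 0.24), so numbers were not taken to pair samples. Alternatives were leaving out dim probe sets, 1 value per gene, other normalizations, an added 16, another variance prior, array weights, the replicate block and leaving out each array.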

Additional observations from a re-analysis of the deposited data

How the results depend on the processing

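With all arrays weighted equally 1 member was called higher and 2 lower, and 0 and 9 network genes. The array medians already lay between 6.46 and 6.48, so median centring could change little. Median centring, quantile normalization, 1 probe set per gene and eBayes with trend and robust options left the member counts at 1 and 2. They were 0 and 1 without dim probe sets, where 60 of 85 members were not tested, 2 higher in the mean over probe sets and with log2(intensity + 16), and 3 and 7 with array weights, where network counts were 1 and 19 and the lower members included Timp4, Adamts1, Mmp12 and Mmp19. With the muscle covariate, added after seeing the data, they were 6 and 7, and 2 and 18. Calls over all probe sets moved as well. Their share was 16% with all arrays weighted equally, 22.5% without control replicate 2 and 26.8% with the muscle covariate. For array weights and the other fits that share was not counted, so the counts there cannot be set against it. The cause was not tested. Leaving out single arrays gave 0 to 2 higher and 2 to 11 lower members, and 0 to 1 and 3 to 13 network genes. The replicate block gave 1 and 3, Adamts1 being the third (limma adjusted p = 0.0446), and 0 and 6 network genes, and same-numbered arrays share only a number (r = -0.23, 0.09 and 0.24). Among the probe sets the text names by value, signs turned in ones that had not been called. In the mean over probe sets these were Adam17 (0.018) and Mmp9 (0.018), and 1 dim Timp2 probe set with quantile normalization (-0.0072) and array weights (-0.0050), Adam15 with quantile normalization (0.010) and Mmp3 with array weights (-0.46). With the muscle covariate they were Mmp14 (-0.092), Mmp2 (-0.047 and -0.030) and Timp2 (-0.035, -0.084 and -0.039) and Adam15 (0.0033). Leaving out single arrays gave -0.27 to 0.34 for Mmp14, -0.19 to 0.40 and -0.26 to 0.43 for Mmp2, and -0.15 to 0.29, -0.26 to 0.40, -0.17 to 0.28 and -0.14 to 0.45 for Timp2, each lowest without control replicate 3 and highest without control replicate 2. It gave -0.075 to 0.14 for the dim Timp2 probe set, -0.76 to 0.023 for 1 Timp3 probe set, -0.44 to 0.70 for Mmp3, -0.088 to 0.022 for 1 Adam15 probe set and -0.022 to 0.085 for 1 Adam17 probe set. Signal near background limits what could be seen in dim members.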
